A study of Mus musculus with 6 samples.

Results

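Ferritin and iron handling was followed through 10 genes that were chosen by name in a count table of 57010 genes. They encode the ferritin chains (Fth1, Ftl1), the receptor that releases iron from ferritin (Ncoa4), the uptake route (Tfrc, Steap3, Slc11a2), a phagosomal transporter (Slc11a1), the exporter (Slc40a1) and the sensors of cytosolic iron (Aco1, Ireb2). The table holds 6 RNA-seq libraries of primary neonatal mouse cardiomyocytes (NMCMs) from newborn C57BL/6 mice. The cells were prepared by differential adhesion and kept under hypoxia (HO), with vehicle (HO + Vehicle, libraries V1 to V3) or with the plant sterol β-sitosterol (HO + β-SITO, libraries T4 to T6). All 6 libraries are therefore hypoxic, no normoxic library was analysed here, and the dose and exposure time of these libraries are not given in the sources used here. Whether the libraries came from separate cultures is not given either, so the spread between them may be technical.

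Each of the 10 genes matched 1 row, and all 10 passed the filter on low counts. The members were chosen with their differences between these groups already known, so their fold changes, and whether they were called, are a description and not an independent test. The libraries held 16694734 to 18460522 counts. Levels are given as CPM, counts scaled to library size with TMM factors, which does not correct for gene length, so levels are compared between groups and not between genes. A gene was called when it differed by over 2-fold and its adjusted p from edgeR's quasi-likelihood test was below 0.05. Markers of other cell types were present: the summed level of 8 fibroblast markers was 19771 to 20818 CPM with vehicle and 26179 to 26535 CPM with β-SITO. That of 10 cardiomyocyte markers was 4950 to 5750 CPM with vehicle and 4741 to 8004 CPM with β-SITO. Of these 10, 2 were called higher (Nppa and Myh7) and 0 lower. The largest part of their sum was Myh6, at a mean of 1973 CPM with vehicle and 2849 CPM with β-SITO. Tnnt2, Pln and Actn2 had negative log2 fold changes (-0.47, -0.42 and -0.05), and the other cardiomyocyte markers had positive ones. Tnnt2 and Pln passed the adjusted p and not the 2-fold cutoff. None of the 8 fibroblast markers was called. Most of their sum came from Col1a1 (mean 9100 CPM with vehicle and 12197 CPM with β-SITO) and Col1a2 (6800 and 10215 CPM). Among the fibroblast markers, Dcn and Postn had negative log2 fold changes (-0.52 and -0.22), and the others had positive ones. Mitochondrial genes took 1.19% to 1.32% of counts with vehicle and 1.87% to 2.26% with β-SITO. In such mixed bulk samples, fewer cells of a type and less RNA per cell cannot be told apart.

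Free ferrous iron drives the formation of hydroxyl radicals, so cells keep it low by storing it in ferritin, a hollow shell built from heavy and light chains, or by exporting it through ferroportin. Iron enters bound to transferrin, is released and reduced in the endosome and passes to the cytosol. When iron is scarce, the iron regulatory proteins bind a hairpin in messenger RNAs, the iron-responsive element (IRE). An IRE before the coding sequence then blocks translation, and IREs after it protect the transcript from decay, so that much of the control of ferritin is not visible in transcript counts.

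The hairpin was searched for in mouse transcripts of GENCODE M21, because it is the feature that ties these genes to the iron sensors. The pattern, read on the transcript strand, was the loop CAGTGN with a last letter other than G, 5 paired bases on each side of the loop, a C that bulges out before them, and at least 4 pairs in the 6 positions beyond. It was found in 4 of the 10 members and in 35 of 21877 protein-coding genes (0.16%). Fth1, Ftl1 and Slc40a1 held 1 match each in the 5′ UTR and Tfrc held 4 in the 3′ UTR. The 29 bases of each are shown with the loop in capitals, as this element links a transcript to the iron sensors. Slc11a2 is also known for an IRE in the 3′ UTR of some of its isoforms, which this strict pattern did not match.
Fth1 5′ UTR: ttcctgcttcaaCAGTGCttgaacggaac
Ftl1 5′ UTR: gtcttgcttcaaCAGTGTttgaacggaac
Slc40a1 5′ UTR: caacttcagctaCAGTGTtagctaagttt
Tfrc 3′ UTR, site 1: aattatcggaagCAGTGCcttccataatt
Tfrc 3′ UTR, site 2: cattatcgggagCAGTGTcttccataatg
Tfrc 3′ UTR, site 3: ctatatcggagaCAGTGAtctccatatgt
Tfrc 3′ UTR, site 4: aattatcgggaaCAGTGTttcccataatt
In GRCm38, the build of that annotation, they lie at chr19:9982732-9982760 on the plus strand (Fth1), chr7:45459779-45459807 on the minus strand (Ftl1) and chr1:45925465-45925493 on the minus strand (Slc40a1). Those of Tfrc lie on the plus strand at chr16:32631219-32631247, chr16:32631598-32631626, chr16:32631663-32631691 and chr16:32631710-32631738. A match is a likeness of letters and not proof of binding, and no match in the other members says only that these letters are not there.

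Of the 10 members, 3 were called higher with β-SITO (Slc40a1, Steap3 and Ftl1) and 2 were called lower (Slc11a2 and Fth1), where 12.8% of the 14799 genes tested were called higher and 10.1% lower. Without the fold-change cutoff, 3 were higher and 4 lower, where 33% and 33.8% of all tested genes were (66.8% in either direction). For 8 of the 10, the values of 1 group all lay outside those of the other, as they did for 70.5% of all tested genes. The 5 members that were not called differed by at most 0.30 on the log2 scale. The median log2 fold change was -0.15 for the 10 members and -0.01 for all tested genes.

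**Figure D1:**
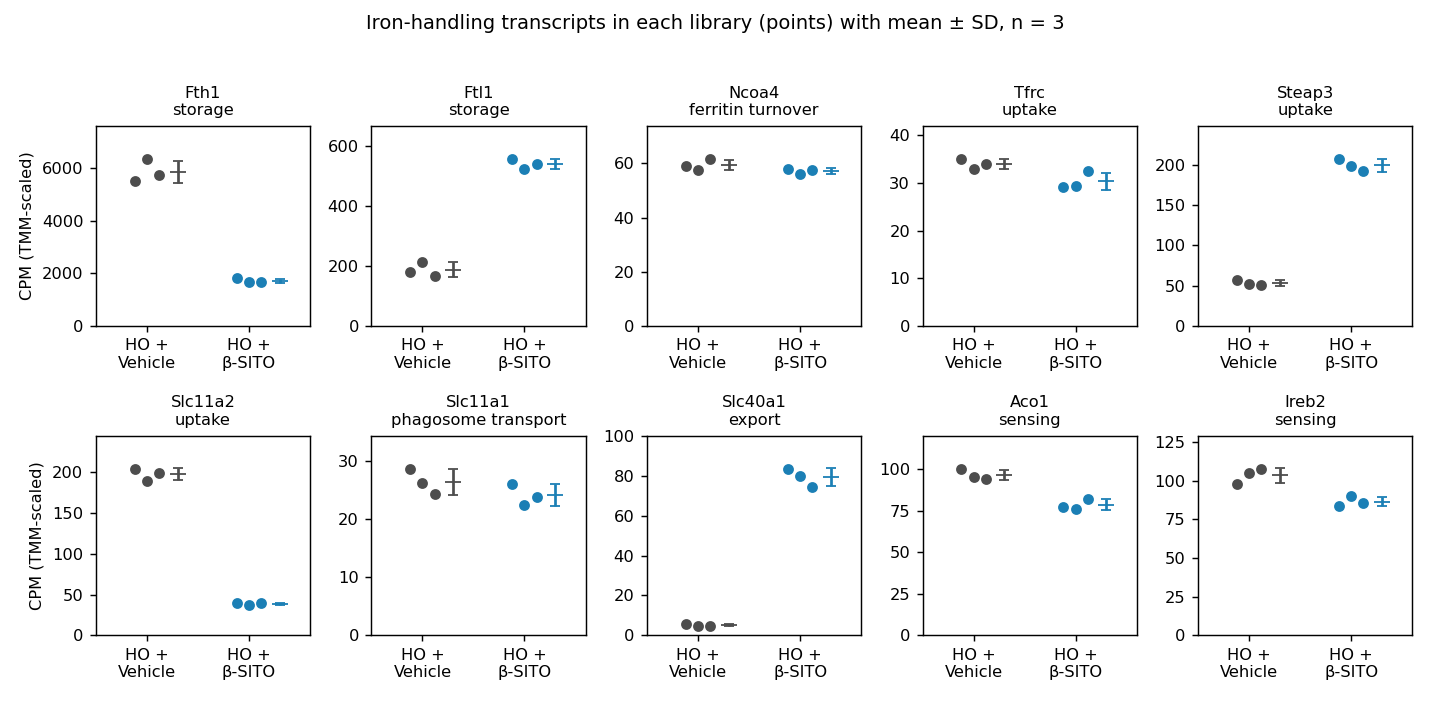
Levels of the 10 genes in each library, in CPM after TMM scaling on axes that start at 0, for 3 HO + Vehicle and 3 HO + β-SITO libraries; points are libraries and the bars beside them are the mean ± SD. Fth1 and Slc11a2 are lower and Ftl1, Steap3 and Slc40a1 are higher in every HO + β-SITO library, whereas the points of Ncoa4 and Slc11a1 overlap between the groups.

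Fth1 encodes the ferritin heavy chain, which oxidizes ferrous iron so that it can be laid down inside the shell. The gene (ENSMUSG00000024661) lies on chromosome 19 from 9957962 to 9962462 on the plus strand in the deposited table, for which the processing notes name GRCm39. It had 5522, 6347 and 5744 CPM in V1, V2 and V3 and 1809, 1666 and 1669 CPM in T4, T5 and T6. Every HO + β-SITO library lay far below every HO + Vehicle library, and V2 was the highest of the vehicle libraries. The mean of 3 libraries was 5871 ± 427 CPM (SD) with vehicle and 1714 ± 81.7 CPM with β-SITO. The level was 3.42-fold lower, or -1.78 on the log2 scale with an SE of 0.07. Fth1 took 0.523% to 0.607% of all counts with vehicle and 0.175% to 0.191% with β-SITO. No other row with counts overlapped the gene in the table, and the ferritin heavy-chain pseudogenes Fth1-ps and Fth-ps2 held 4 and 2 counts over all 6 libraries.

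Ftl1 encodes the light chain, which lacks the oxidizing site and helps the iron core to form. Ftl1 (ENSMUSG00000050708) lies on chromosome 7 from 45107368 to 45109308 on the minus strand. The level was 180.1, 214.3 and 166.3 CPM in V1, V2 and V3, against 555.3, 521.7 and 540.9 CPM in T4, T5 and T6. All HO + β-SITO libraries were higher, opposite to the heavy chain. The mean of 3 libraries was 186.9 ± 24.7 CPM (SD) with vehicle and 539.3 ± 16.9 CPM with β-SITO. The level was 2.89-fold higher, or 1.53 on the log2 scale with an SE of 0.08.

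The size of the light-chain difference depended on whether near-identical copies of Ftl1 were counted with it. Whether the reads of these copies came from Ftl1 was not tested. The processed pseudogene Ftl2-ps, on chromosome 4 from 125398081 to 125398632, held 3345, 3835 and 3296 counts in V1, V2 and V3 and 1, 0 and 2 counts in T4, T5 and T6. This row was thus filled with vehicle and empty or nearly so with β-SITO. The scaled ratio was 4115, with a 95% exact Poisson interval from 1408 to 19955 that covers counting error only. Ftl1-ps2 held 37, 53 and 42 counts against 2, 0 and 0 counts. Ftl1-ps1, in contrast, was called higher with β-SITO, at 50, 53 and 50 counts against 258, 224 and 234 counts.

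In GENCODE M21, the 552 bases of Ftl2-ps aligned to the Ftl1 transcript without a gap and with 7 mismatches (98.7% identity), and the longest identical run was 306 bases. Of the 150-base windows of Ftl2-ps, the read length of the study, 39.0% occurred unchanged in Ftl1. Ftl1-ps1 was 99.6% identical over 910 aligned bases, with 47.8% of its windows found in Ftl1. Ftl1-ps2 was 97.8% identical over 549 bases, and 0 of its 400 windows were found there. The windows were searched only in Ftl1 and only unchanged, so sharing of reads among the copies was not tested. How the counting treated reads that match several places is not given in the sources used here. The split of reads among Ftl1 and these copies is therefore uncertain. Which litters or mouse stock each library came from is not given there either.

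Ftl1 took 44.2% to 46.4% of the counts of the 4 rows named Ftl with vehicle and 97.6% to 97.8% with β-SITO. Summed, these rows had 396.9, 461.3 and 376.3 CPM in V1, V2 and V3 and 568.7, 534.3 and 553.2 CPM in T4, T5 and T6. The groups still did not overlap, but the log2 fold change of the sum was 0.43 with an SE of 0.08, or 1.35-fold higher, and it was not called. This sum was chosen after the counts had been seen. It stayed between 0.36 and 0.57 on the log2 scale with each library left out in turn and with other scalings.

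The balance of the chains needs no scaling between libraries. The counts are not corrected for gene length, so only the change of the ratio between groups is read. Per count of Ftl1 there were 31.6 ± 2.59 counts of Fth1 with vehicle and 3.18 ± 0.0872 with β-SITO (SD, n = 3). Per count of all rows named Ftl there were 14.3 ± 0.829 and 3.10 ± 0.0829 (SD, n = 3). The ratio of heavy to light chain was thus 9.94-fold lower with β-SITO by the first measure and 4.61-fold lower by the second. Fth1 and Ftl1 together took 0.540% to 0.627% of counts with vehicle and 0.229% to 0.249% with β-SITO. The exact 95% binomial intervals of these shares reached from 0.536% to 0.631% and from 0.227% to 0.251%, for counting error only.

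**Figure D2:**
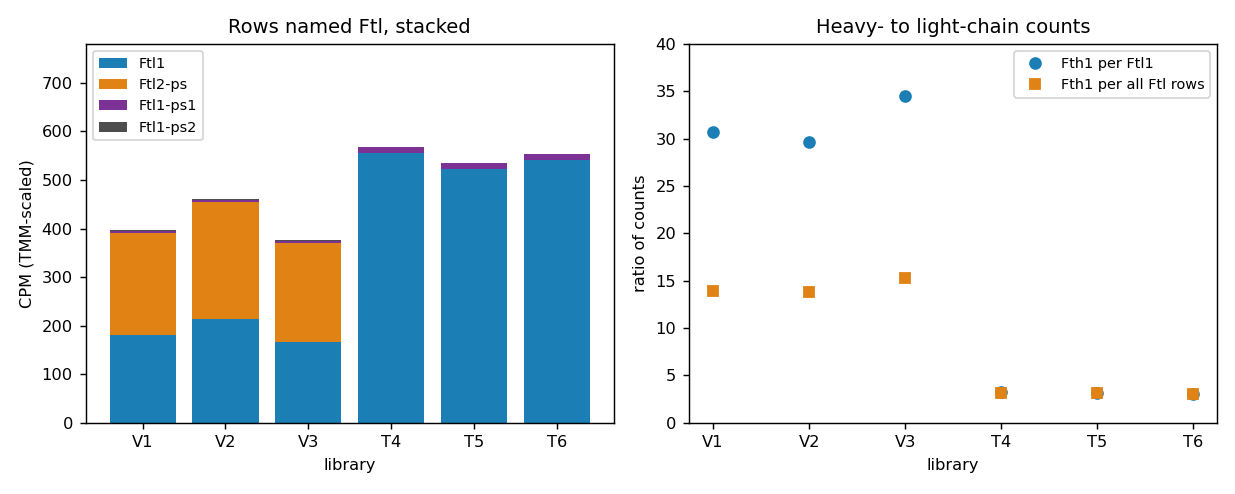
Left, stacked bars of the 4 rows named Ftl in CPM for each library; right, counts of Fth1 per count of Ftl1 (circles) and per count of all rows named Ftl (squares). Ftl2-ps holds 52.1% to 54.3% of the stack in the vehicle libraries and nearly none in the β-SITO libraries, and the ratio falls from 14.3 to 3.10 when all rows are counted.

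Rows that were filled in the vehicle group and empty in the other were uncommon. Of 131 processed pseudogenes with at least 100 counts in every library of either group, 2 (1.53%), Ftl2-ps and Gm6545, had at most 3 counts in every HO + β-SITO library, and 0 showed the reverse. Among protein-coding genes the same held for 28 of 10880 (0.257%) and 4 (0.0368%). Gm6545 was named after its counts had been seen, with 312, 339 and 365 counts against 0, 1 and 0 counts.

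Ncoa4 encodes the cargo receptor that carries ferritin to the lysosome, where its iron is set free. It lies on chromosome 14 from 31881822 to 31901812. Its level was 59.1, 57.7 and 61.5 CPM in V1, V2 and V3 and 58.0, 56.0 and 57.4 CPM in T4, T5 and T6. The groups overlapped, and the log2 fold change of -0.06 with an SE of 0.06 did not pass and turned to 0.09 when libraries were scaled by size only. No difference in the transcript of this receptor was thus detected.

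Tfrc encodes the transferrin receptor, the main entry for iron, and lies on chromosome 16 from 32427738 to 32451612. Its level was 35.0, 32.9 and 34.1 CPM in V1, V2 and V3 and 29.2, 29.4 and 32.4 CPM in T4, T5 and T6. The groups did not overlap, by a narrow margin between V2 and T6. The log2 fold change was -0.16 with an SE of 0.07, which did not pass. The level of this transcript, with the 4 hairpins shown above, is known to follow the iron regulatory proteins.

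Steap3 encodes the endosomal reductase that turns ferric into ferrous iron, and lies on chromosome 1 from 120118487 to 120200435. Its level rose from 57.1, 52.3 and 50.7 CPM in V1, V2 and V3 to 207.3, 199.3 and 192.1 CPM in T4, T5 and T6. All libraries of the HO + β-SITO group were higher, with means of 199.5 ± 7.57 CPM against 53.4 ± 3.32 CPM (SD, n = 3). The log2 fold change was 1.90 with an SE of 0.06, or 3.74-fold. Its relatives Steap1, Steap2 and Steap4, which are not members, all fell, with log2 fold changes of -3.40, -2.17 and -5.48 and adjusted p of 2.95e-13, 1.06e-13 and 4.97e-16 (edgeR's quasi-likelihood test). Steap3 was therefore the 1 gene of this reductase family that was higher.

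Slc11a2 encodes the divalent metal transporter DMT1, which moves iron from the endosome to the cytosol after its reduction. The gene lies on chromosome 15 from 100285779 to 100322953. Its level fell from 203.6, 189.3 and 198.3 CPM in V1, V2 and V3 to 39.5, 36.7 and 39.6 CPM in T4, T5 and T6. The groups were far apart, with means of 197.1 ± 7.21 CPM against 38.6 ± 1.64 CPM (SD, n = 3). The log2 fold change of -2.35 with an SE of 0.06, or 5.10-fold lower, was the largest decrease among the 10 members. Consecutive steps of the endosomal route thus differed in direction, with the reductase higher and the transporter lower. An overlapping long noncoding RNA on the other strand, Gm5475, held 7 counts over all libraries.

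Slc11a1 encodes the related transporter NRAMP1 of macrophage phagosomes, and lies on chromosome 1 from 74414354 to 74425221. C57BL/6 mice are known to carry a loss-of-function coding allele of this gene, so its transcript says little about transport here. Its level was 28.7, 26.2 and 24.3 CPM in V1, V2 and V3 and 26.2, 22.4 and 23.9 CPM in T4, T5 and T6. The groups overlapped. The log2 fold change of -0.13 with an SE of 0.09 did not pass and turned to 0.02 when libraries were scaled by size only.

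Slc40a1 encodes ferroportin, the exporter through which cells release iron, and is best known from macrophages that recycle iron and from the gut. It lies on chromosome 1 from 45947228 to 45965683. Its level was 5.56, 4.95 and 4.77 CPM in V1, V2 and V3 and 83.4, 79.7 and 74.6 CPM in T4, T5 and T6, which came from 88, 79 and 77 counts against 1623, 1418 and 1433 counts. The low level in all vehicle libraries and the high level in all HO + β-SITO libraries left a wide gap. The log2 fold change of 3.96 with an SE of 0.09, or 15.5-fold, was the largest of the members and ranked at position 64 from the top among the 14799 genes tested.

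Markers of other cells moved beside Slc40a1 and Steap3. Of 12 macrophage markers, 7 were called higher (Mrc1, Csf1r, Cd68, Lyz2, C1qa, C1qb and C1qc) and 2 lower (Cd14 and Fcgr1), where 12.8% and 10.1% of all tested genes were. Their summed level was 1388 to 1518 CPM with vehicle and 2869 to 3522 CPM with β-SITO. Mrc1, a scavenger receptor, had a log2 fold change of 4.79 and the macrophage surface protein Adgre1 one of -0.06. All 7 endothelial markers were called higher, with a summed level of 183.7 to 211.2 CPM against 753.0 to 779.6 CPM. Of 4 smooth muscle markers, 2 were called higher (Myh11 and Cnn1). The summed level of the 4 was 546.5 to 589.5 CPM against 1062 to 1243 CPM. Most of that sum was Acta2, at a mean of 561.7 CPM with vehicle and 1114 CPM with β-SITO. Acta2 was not called (log2 fold change 0.99). The part of these cells in the differences of Slc40a1, Steap3 and the other members was not tested. Of 7 erythroid markers, 6 had no count in any library and Hba-a1 at most 0.0521 CPM.

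Aco1 encodes iron regulatory protein 1, which serves as an aconitase when it holds an iron-sulfur cluster, and lies on chromosome 4 from 40143081 to 40198338. Its level was 100.3, 95.6 and 94.3 CPM in V1, V2 and V3 and 77.6, 76.1 and 82.3 CPM in T4, T5 and T6. Ireb2 encodes iron regulatory protein 2, which is degraded when iron is ample, and lies on chromosome 9 from 54771073 to 54819814. Its level was 97.7, 104.8 and 107.5 CPM against 83.8, 89.9 and 85.6 CPM in the same order. Both sensors were lower in every HO + β-SITO library. The log2 fold changes of -0.30 for Aco1 and -0.26 for Ireb2, each with an SE of 0.06, passed the adjusted p and not the 2-fold cutoff. With libraries scaled by size only they were -0.15 and -0.11, and with upper quartile normalization -0.15 and -0.12, and Ireb2 then no longer passed. The binding activity of both proteins is set after transcription and was not measured in these libraries.

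The members with a matched or known IRE differed in direction. Fth1 was lower (log2 fold change -1.78), Slc40a1 was higher (3.96), Ftl1 was higher with the doubt about its copies (1.53, or 0.43 for the summed rows), and Tfrc did not pass (-0.16). Slc11a2, known for an IRE and not matched by the pattern, was lower (-2.35). Epas1, which encodes the hypoxia-inducible factor HIF-2α and is known for an IRE that was not matched either, had a log2 fold change of -0.96 that passed the adjusted p and not the 2-fold cutoff.

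**Figure D3:**
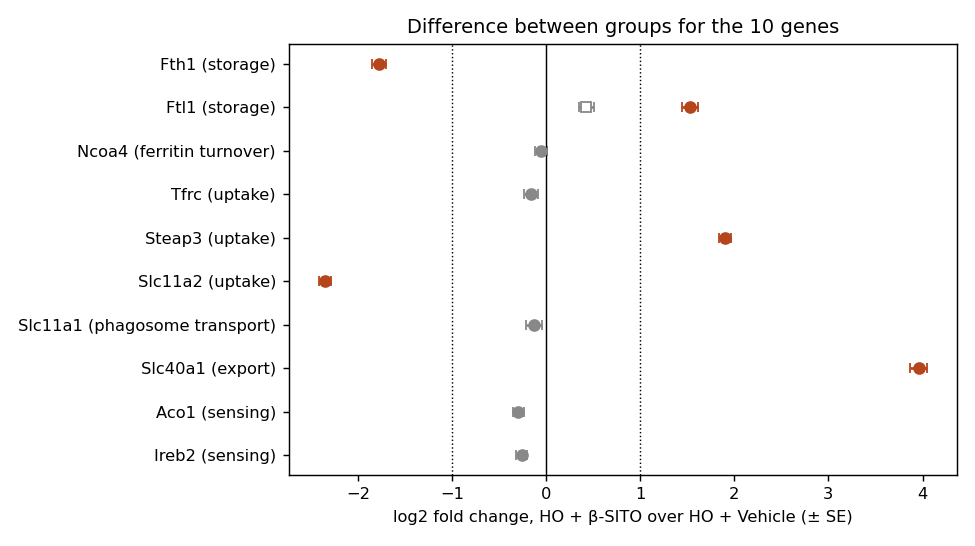
Log2 fold change of the HO + β-SITO group over the HO + Vehicle group for the 10 genes, with the SE as bars and 3 libraries per group; filled rust-coloured points were called, grey points were not, and the open square is the sum of the 4 rows named Ftl. Points span from -2.35 for Slc11a2 to 3.96 for Slc40a1, with dotted lines at a 2-fold change.

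Other genes of iron biology were taken from lists of 77 genes in all, of which 70 were tested. Of these, 5 were called higher and 10 lower, or 21.4%, against 22.8% of all tested genes. The pooled share was thus near that of all genes, but the lists differed. It was 66.7% on the list of iron uptake and 0% on those of heme synthesis and iron-sulfur cluster assembly.

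On the list of iron uptake, reduction, chaperones and sensing, 18 of 20 genes were tested, 4 were called higher and 8 lower, with a median log2 fold change of -0.55. This was 66.7% called, where 22.8% of all tested genes were. All 18 passed the adjusted p, where 66.8% of all tested genes did. The list was chosen with earlier results of these data known, so its share is a description. The largest decrease was that of Lcn2, whose protein binds iron-loaded siderophores and is part of the acute-phase response. It fell from 481.2, 531.6 and 488.1 CPM in V1, V2 and V3 to 1.64, 1.41 and 1.09 CPM in T4, T5 and T6, which is -8.49 on the log2 scale (adjusted p = 2.36e-17, edgeR). Slc39a14, which encodes the importer ZIP14 for iron that is not bound to transferrin, had 461.7 ± 33.7 CPM against 57.1 ± 4.26 CPM (SD, n = 3) and fell by 3.01 on the log2 scale. Slc39a8, which encodes the related importer ZIP8, had a log2 fold change of 0.37, which passed the adjusted p (0.0106, edgeR) and not the 2-fold cutoff.

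The 8 genes called lower also included Steap1, Steap2, Steap4, Cp, Slc25a37 and Hephl1, which held 16, 13 and 13 counts against 2, 4 and 6 counts. Cp encodes ceruloplasmin, a copper oxidase that loads exported iron onto transferrin, and fell by 1.91 on the log2 scale, from 443.9 ± 33.7 CPM to 118.2 ± 6.35 CPM (SD, n = 3). Heph, which encodes the related oxidase hephaestin, was higher, with 40.4 ± 3.81 CPM against 97.5 ± 5.56 CPM (SD, n = 3) and a log2 fold change of 1.27. Slc25a37, the mitochondrial iron importer mitoferrin 1, fell by 1.54 on the log2 scale. Of the 3 oxidases of this family on the list, Cp and Hephl1 were thus lower and Heph was higher.

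Trf, which encodes transferrin, was higher with 118.1 ± 4.07 CPM against 245.3 ± 13.1 CPM (SD, n = 3) and a log2 fold change of 1.06. Scara5, a ferritin receptor, and Cybrd1, an iron reductase of the gut, were also called higher. These calls rested on low counts, of 3, 5 and 2 against 42, 38 and 43 for Scara5 and of 2, 4 and 1 against 24, 16 and 24 for Cybrd1. Fbxl5, the ligase subunit that removes iron regulatory protein 2 when iron is ample, had a log2 fold change of -0.35, under the 2-fold cutoff, and was named after its value had been seen.

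**Figure D4:**
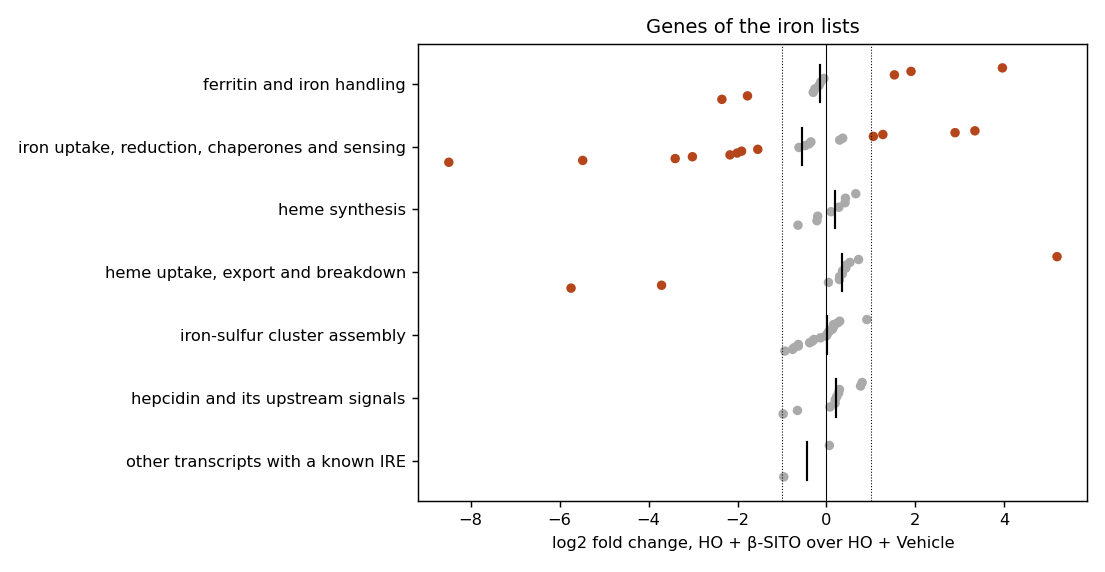
Log2 fold change of the tested genes of each iron list and of the 10 genes, as points, with the median of the list as a vertical bar and dotted lines at a 2-fold change; rust-coloured points were called and grey points were not. Called genes lie on the lists of iron uptake (12 of 18 tested) and of heme uptake, export and breakdown (3 of 12) and not on the other 4 lists. Of all tested genes, 22.8% were called.

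On the list of heme uptake, export and breakdown, 1 of 12 tested genes was called higher and 2 lower, with a median log2 fold change of 0.36. This was 25% called, near the 22.8% of all tested genes. Without the fold-change cutoff, 11 of the 12 passed the adjusted p, where 66.8% of all tested genes did. Hp, which encodes haptoglobin, the plasma carrier of free hemoglobin, fell from 121.7, 137.7 and 131.6 CPM in V1, V2 and V3 to 3.03, 2.42 and 1.82 CPM in T4, T5 and T6 (log2 fold change -5.74, adjusted p = 1.16e-15, edgeR). Hpx, the heme carrier hemopexin, was low throughout, with 40, 42 and 33 counts against 4, 2 and 4 counts. Cd163, the macrophage receptor for the haptoglobin complex, held 0, 0 and 2 counts against 32, 36 and 32 counts, a ratio of 42.4 with an exact Poisson interval from 11.4 to 355 for counting error only. Hmox1, which breaks heme down and frees its iron, had a log2 fold change of 0.43, which passed edgeR's adjusted p (6.44e-06) and not the 2-fold cutoff. The same held for Lrp1, a receptor for the complex of heme and hemopexin, which had a log2 fold change of 0.53.

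No gene was called among 8 tested genes of heme synthesis (median log2 fold change 0.19), 20 of iron-sulfur cluster assembly (0.00) and 10 of hepcidin and its upstream signals (0.21). Of all tested genes, 22.8% were called. Without the fold-change cutoff, 7 of 8, 9 of 20 and 7 of 10 passed edgeR's test, against 66.8% of all tested genes. On the first list Fech, which inserts iron into heme, had a log2 fold change of 0.28 and Alas1, the first enzyme of the pathway, one of -0.21. On the second, the chaperone Hspa9 had a log2 fold change of -0.73 and the cluster carrier Isca1 one of 0.25. On the third, Neo1, a co-receptor that promotes hepcidin expression, had one of 0.77 and the BMP receptor Bmpr1a one of 0.19. Hamp, which encodes hepcidin, the hormone that removes ferroportin from the cell surface, held 3, 4 and 4 counts in V1, V2 and V3 and 12, 7 and 11 counts in T4, T5 and T6. It was too low to be tested.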

How the data were processed

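The values are read counts per gene, which the authors deposited without normalization for 6 libraries. The submitters' processing notes name FastQC, HISAT2, featureCounts and GRCm39; options, the strand setting of the counting and the annotation are not given in the sources used here. The study names paired-end reads. Conditions were taken from the sample titles and matched to columns by library name. The library names of the HO + β-SITO group carry a suffix that the others lack, so a separate preparation, if any, cannot be told apart from treatment.

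From the counts, filterByExpr kept 14799 genes, which were scaled by TMM (factors 0.945 to 1.06) and compared with edgeR 4.0.16 in R 4.3.3 (quasi-likelihood test, Benjamini-Hochberg adjustment over all tested genes, group as the only term). The SE of a log2 fold change was taken from the F statistic. The script was tested on simulated data. Alternatives used DESeq2 1.42.0, limma 3.58.1, glmTreat, other scalings and filters, and each library left out in turn. An exact permutation test of 3 libraries against 3 cannot go below p = 0.1 and was not used for calls. Hairpins and alignments were computed on GENCODE M21 transcripts with Biopython 1.88.

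The members and lists were chosen with earlier results of these data known. Named genes are the 10 members, up to 4 called genes in each direction and up to 2 of the highest level per list, and rows named Fth or Ftl with at least 10 counts. Beyond this rule, Steap2, Slc25a37, Hephl1, Slc39a8, Hamp, Fbxl5, Gm6545, Fth1-ps and Fth-ps2 were named after their values had been seen. The table had no gene lengths, so CPM ranked genes only to choose names. The ratios of Fth1 to Ftl counts set genes against each other without length correction, so only their change between groups is read.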

Additional observations from a re-analysis of the deposited data

How the results depend on the processing

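The direction and call of Fth1, Slc11a2, Steap3 and Slc40a1 were kept under all 17 alternatives. The call of Ftl1 was lost in 1 of them, the sum of the rows named Ftl (log2 fold change 0.43), which was added after the data were seen. Scaling by library size only moved the median of all tested genes by 0.15 on the log2 scale. The sign of the uncalled members then turned for Ncoa4 (0.0919, and 0.0869 with upper quartile normalization) and for Slc11a1 (0.0221, and 0.0172 with upper quartile normalization), and 1 gene of iron-sulfur cluster assembly was called higher with either scaling. Under both scalings Ireb2 also no longer passed the adjusted p (-0.11 and -0.12), and Aco1 stood at -0.15. With glmTreat, 3 instead of 4 genes of the iron uptake list were called higher. Without the fold-change cutoff, 4 members were lower instead of 2, with Aco1 and Ireb2 added. In that case 33% of all tested genes were higher and 33.8% lower. Of 8 tested genes of heme synthesis, 4 were higher and 3 lower. Of 12 of heme uptake, export and breakdown, 9 were higher and 2 lower. Of 20 of iron-sulfur cluster assembly, 2 were higher and 7 lower. Of 10 of hepcidin and its signals, 5 were higher and 2 lower, and of 2 other transcripts with an IRE 1 was lower. With each library left out in turn, 0 to 1 gene of iron-sulfur cluster assembly was called higher (1 without V2), and of the hepcidin list 0 to 1 were higher (1 without V3 and 1 without T5) and 0 to 1 lower (1 without T4). The cause of these changes was not tested. The share of counts in Fth1 and Ftl1 moved by less than the spread between libraries with another denominator or with all rows named Fth or Ftl. No paired analysis was possible because the groups share no replicate numbers. Depth limits the rows with few counts, such as Hamp, Hpx, Scara5, Cybrd1 and Cd163.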
